A study of Mus musculus with 12 samples.

Results

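The genes described here mark the CD4-positive branch of conventional dendritic cells called cDC2. The list holds 9 genes, Cd4, Cd209a, Cd209d, Sirpa, Esam, Clec4a4, Clec10a, Mgl2 and Itgam. They were chosen by name, with earlier results of these data known. Of these, 8 genes had at least 1 probe set annotated to that single symbol, giving 11 probe sets among the 28898 probe sets (17097 genes) tested. Clec4a4, which encodes the lectin receptor DCIR2 and is a standard surface mark of splenic CD4-positive cDC2, had no such probe set and was not analysed here. RNA was profiled on 12 Affymetrix arrays, 3 in each of 4 groups of splenic dendritic cells (DCs). The groups were miR-142 knockout (KO) DCs without stimulation, wild-type (WT) littermate DCs without stimulation, KO DCs with lipopolysaccharide (LPS, a bacterial cell wall component sensed through TLR4) and WT DCs with LPS. All mice were C57BL/6 males aged 10 weeks, and each array is labelled as a biological replicate from an individual spleen. The same replicate numbers recur with and without LPS within each genotype, and whether a shared number means a shared mouse is not stated. No label states the LPS dose or exposure, and none names a Cre driver or a promoter for the deletion.

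The cDC2 lineage presents antigen on MHC class II, mainly to CD4 T cells, and depends on IRF4 and, in the spleen, on NOTCH2 and RBPJ signalling for its ESAM-high CD4-positive cells. The other conventional lineage, cDC1, carries XCR1 and CD8 and cross-presents antigen. The microRNA miR-142 is made in blood cells. A microRNA pairs with messenger RNAs chiefly through its seed, and the duplex that the KO mice lack gives a 5p and a 3p strand with unrelated seeds. Both mature strands are shown because they define the genotype contrast, with the seed (bases 2 to 8) in capitals. They come from RefSeq (GRCm38.p6, plus strand, at chr11:87756867-87756887 and chr11:87756903-87756925).
mmu-miR-142a-5p: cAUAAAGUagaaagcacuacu
mmu-miR-142a-3p: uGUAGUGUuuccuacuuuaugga
No probe set carries Mir142 as its single symbol, so the genotype labels were not checked on the arrays.

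Values are log2 signals, and a probe set's own brightness sets its level, so levels are compared between groups within a probe set and not between probe sets. The deposited values carry no detection call. The probe sets of Clec10a, Mgl2 and Itgam averaged below the median probe set (2.87), and those of Esam and the dimmer one for Cd4 lay just above it. Sample titles and cell type labels name DCs, whereas the sample descriptions name T cells. Levels of different probe sets do not settle which holds. The average over the 7 measured pan-DC genes lay between 8.20 and 8.51 in 11 arrays, and that over the 11 measured T cell genes between 3.19 and 3.68 in all 12. KO LPS array 2 stood apart: its correlations with the other arrays were 0.93 to 0.956, against 0.962 to 0.99 among the others, its pan-DC average was 7.57, and its Gapdh 3′ signal exceeded the middle signal by 3.04, against 1.53 to 1.86 elsewhere. Values without it are given for Cd4, Cd209a, Cd209d, Sirpa and Esam.

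**Figure D1:**
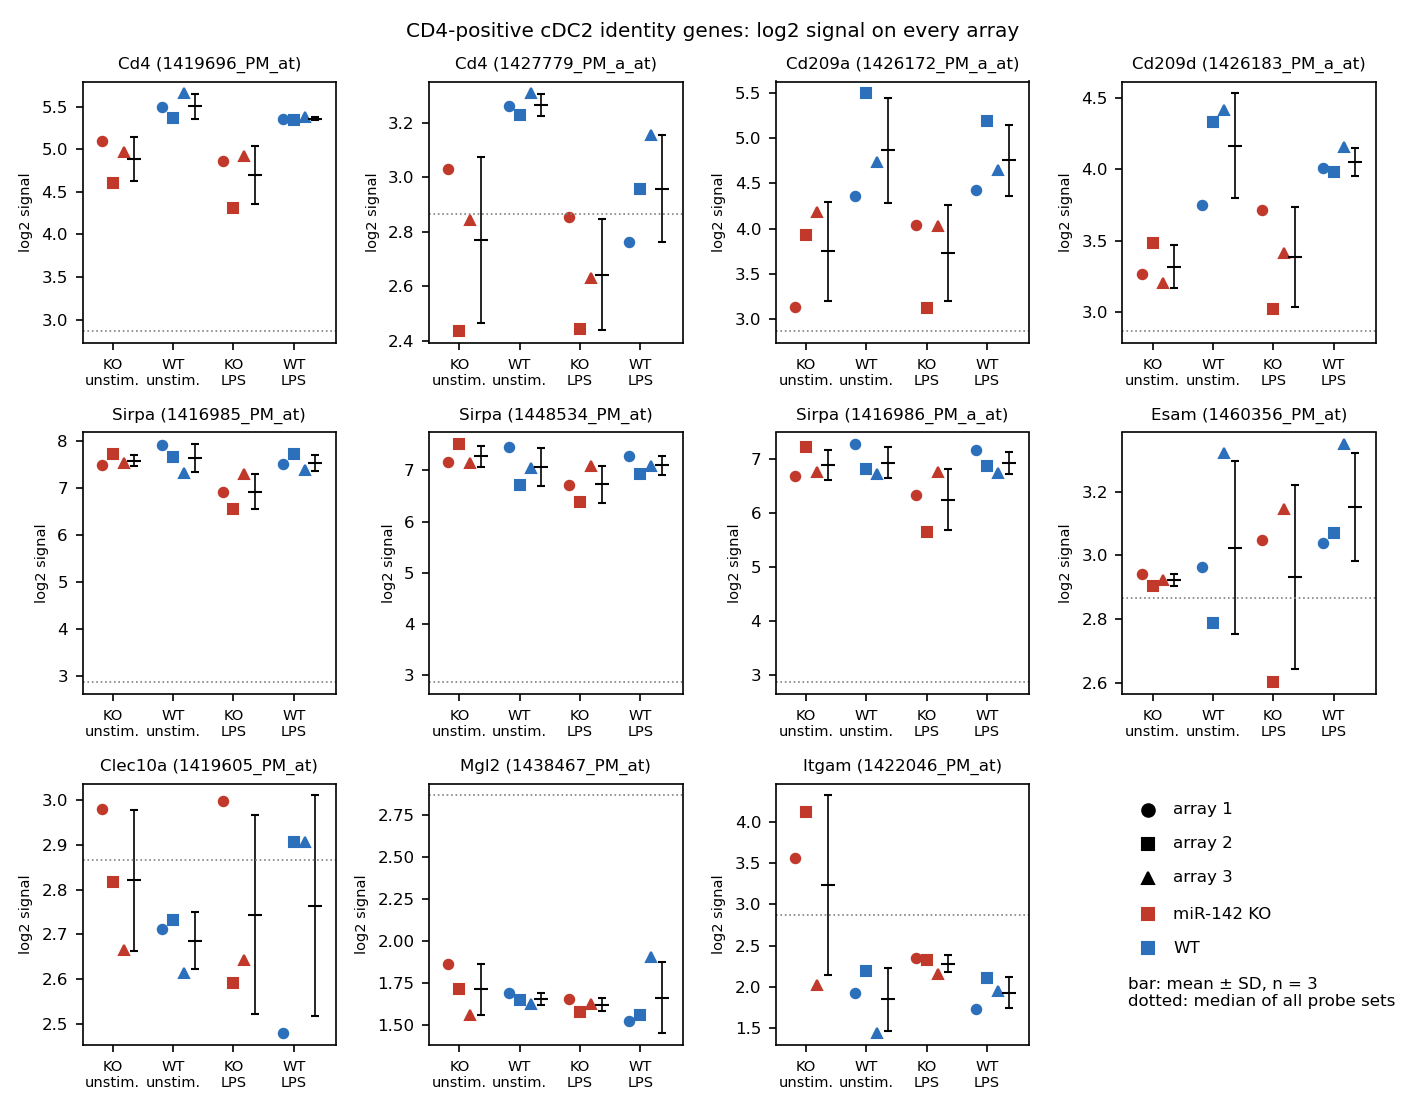
Log2 signal (vertical axes, each with its own range) of the 11 member probe sets on the 12 arrays, in KO (red) and WT (blue) DCs without stimulation and with LPS. Bars are mean ± SD (n = 3), and the dotted line is the median of all probe sets (2.87). The bright Cd4 probe set, Cd209a and Cd209d lie lower in every KO array than in any WT array of the same stimulation.

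The members did not move as a block. Cd4, Cd209a and Cd209d were lower in KO DCs. Sirpa was close to WT without stimulation and lower by group mean in KO DCs with LPS, without passing the test. With LPS only its brightest probe set had no overlap between genotypes, and KO LPS array 2 was lowest on every Sirpa set. Esam, Clec10a and Mgl2 showed no detectable genotype difference. Itgam had higher values in KO DCs, with wide scatter between KO arrays, and did not pass. In the comparison of KO with WT averaged over both stimulations, 3 of 11 member probe sets passed an adjusted p of 0.05 (limma with Benjamini-Hochberg adjustment over all probe sets), all lower in KO. Over all probe sets 2.12% passed, 0.775% as lower and 1.35% as higher. The median log2 fold change was −0.33 over the member probe sets and −0.02 over all. The calls depended on how arrays of the same number were treated. With 1 mean per pair of arrays of the same number, none of the 3 held. With the pair as a random block, Cd4 and Cd209d held (limma adjusted p = 0.0272 and 0.0311) and the Cd209a call was lost. RNA from bulk cells cannot tell fewer cells of a type from less RNA per cell. Most measured neutrophil and NK cell markers were higher in KO, and the part of those cells in the member values was not tested.

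Cd4 encodes the coreceptor that names the subset, which on splenic cDC2 serves as a surface mark. On its brighter probe set (1419696_PM_at), signals were 5.10, 4.60 and 4.97 in KO DCs and 5.49, 5.36 and 5.65 in WT DCs without stimulation. With LPS they were 4.86, 4.31 and 4.92 in KO DCs and 5.36, 5.34 and 5.38 in WT DCs. All KO arrays lay below all WT arrays, and array 2 was the lowest KO array under both stimulations. The averaged difference was −0.64 ± 0.12 (log2, SE), a level 1.56-fold lower in KO, with adjusted p = 0.0191 by limma. The differences without stimulation (−0.61, limma adjusted p = 0.251) and with LPS (−0.66, adjusted p = 0.132) had nearly the same size, and neither passed alone. By group mean the order was WT without stimulation (5.50), WT with LPS (5.36), KO without stimulation (4.89) and KO with LPS (4.70), with neighbours of 1 genotype not differing beyond their spread.

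The dimmer Cd4 probe set (1427779_PM_a_at) had 3.03, 2.44 and 2.84 in KO DCs and 3.26, 3.23 and 3.31 in WT DCs without stimulation, with no overlap. With LPS it had 2.85, 2.45 and 2.63 in KO DCs and 2.76, 2.96 and 3.16 in WT DCs, and KO array 1 overlapped the WT arrays. Its averaged difference was −0.41 ± 0.11 (limma adjusted p = 0.0867). Across the 12 arrays the 2 Cd4 probe sets correlated at r = 0.882.

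Since T cells also carry CD4, their markers are given beside it. None of the 11 measured of 14 listed T cell genes passed in the averaged comparison, and their median log2 fold change was −0.03. Their summed linear signal ran from 123 to 144 in KO and 118 to 170 in WT DCs without stimulation, and from 115 to 145 in KO and 127 to 152 in WT DCs with LPS. Cd3e differed by 0.12, Cd3g by 0.10 and Cd3d by −0.31 (limma adjusted p = 0.821, 0.839 and 0.37). Thy1, which NK and other lymphoid cells also carry, differed by 0.97 (adjusted p = 0.0789).

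Cd209a encodes the mouse C-type lectin known as CIRE or DC-SIGN, a carbohydrate receptor of cDC2 and of DCs that derive from monocytes. Its probe set (1426172_PM_a_at) had 3.14, 3.93 and 4.18 in KO DCs and 4.36, 5.49 and 4.73 in WT DCs without stimulation. With LPS it had 4.04, 3.12 and 4.03 in KO DCs and 4.43, 5.19 and 4.64 in WT DCs. KO and WT arrays did not overlap under either stimulation, and WT array 2 was the highest under both. The averaged difference was −1.07 ± 0.25, a 2.10-fold lower level in KO, the widest gap among the members, with adjusted p = 0.0456 by limma. The call did not hold with arrays of 1 number as a pair (limma adjusted p = 0.0704 as a random block and 0.168 with pair means). The scatter was also wide: the SD was 0.55 in KO and 0.58 in WT DCs without stimulation (n = 3 each). Without stimulation the difference was −1.11 (limma adjusted p = 0.332) and with LPS −1.02 (adjusted p = 0.235).

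Cd209d encodes a related lectin (SIGNR3) from the same gene cluster. Its probe set (1426183_PM_a_at) had 3.27, 3.49 and 3.20 in KO DCs and 3.75, 4.33 and 4.42 in WT DCs without stimulation. With LPS it had 3.72, 3.02 and 3.41 in KO DCs and 4.01, 3.98 and 4.16 in WT DCs. The groups did not overlap under either stimulation. The averaged difference was −0.76 ± 0.14, 1.69-fold lower in KO, with adjusted p = 0.0162 by limma. It was −0.85 without stimulation (limma adjusted p = 0.147) and −0.67 with LPS (adjusted p = 0.177). The bright Cd4 probe set, Cd209a and Cd209d were the 3 member probe sets below WT without overlap under both stimulations, which 2.1% of all probe sets were.

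Arrays of the same number within a genotype deviated together, as described under the processing, so the averaged comparison was also fitted with them as pairs. With the pair as a random block, adjusted p by limma was 0.0272 for Cd4, 0.0311 for Cd209d and 0.0704 for Cd209a, which ended the Cd209a call. With 1 mean per pair (3 KO against 3 WT), it was 0.158 for Cd4, 0.168 for Cd209a and 0.0764 for Cd209d, and no member passed, while 0.208% of all probe sets did. The pair means themselves did not overlap. For Cd4 they were 4.98, 4.45 and 4.94 in KO and 5.42, 5.35 and 5.52 in WT DCs. For Cd209a they were 3.59, 3.53 and 4.11 in KO and 4.40, 5.34 and 4.69 in WT DCs, and for Cd209d 3.49, 3.26 and 3.31 in KO and 3.88, 4.16 and 4.29 in WT DCs. The dimmer Cd4 probe set was also lower in all KO pair means, and 10.3% of all probe sets were lower in this way. A two-sided exact permutation test of 3 against 3 cannot go below 0.1.

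The calls also leaned on single arrays. Cd209d stayed below the threshold in 11 of 12 fits that each left out 1 array, the exception being WT LPS array 3 (limma adjusted p = 0.0517). Cd4 stayed in 9 of 12 and missed without WT unstimulated array 3 (0.0565), WT LPS array 1 (0.05 after rounding) and WT LPS array 3 (0.0542). Cd209a stayed in 4 of 12. It missed without WT unstimulated arrays 1, 2 and 3 (limma adjusted p = 0.0501, 0.1 and 0.093), WT LPS arrays 1, 2 and 3 (0.0697, 0.113 and 0.0937) and KO unstimulated arrays 1 and 2 (0.108 and 0.0861). Without KO LPS array 2, which stands apart, all 3 calls held, at −0.54 for Cd4, −0.92 for Cd209a and −0.67 for Cd209d (limma adjusted p = 0.00837, 0.0425 and 0.0103).

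**Figure D2:**
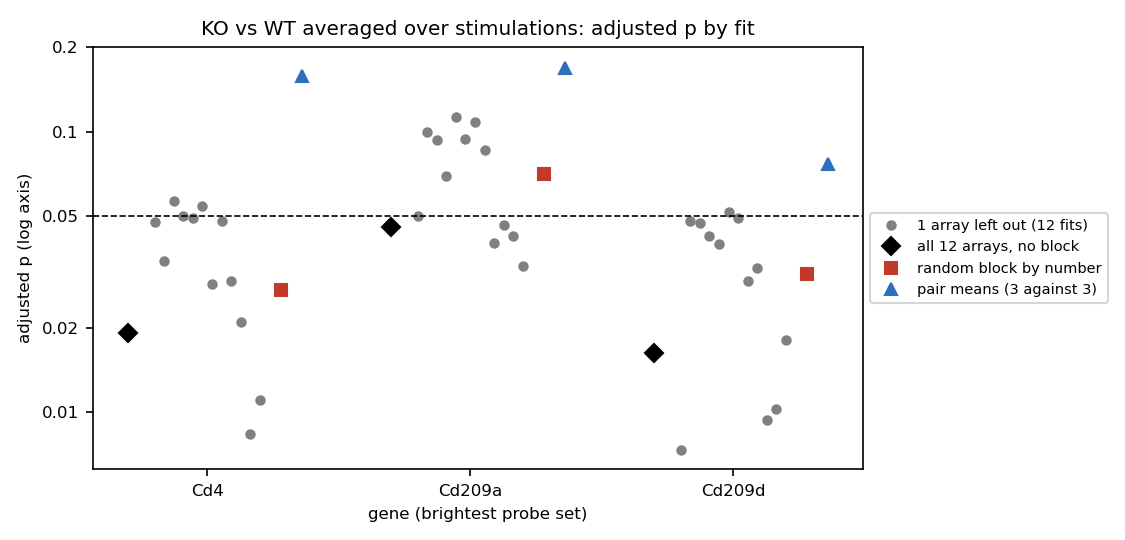
Benjamini-Hochberg adjusted p (log axis) of Cd4 (bright probe set), Cd209a and Cd209d for KO against WT averaged over both stimulations, from all 12 arrays (diamond), with 1 array left out (grey points, 12 fits), with pairs as a random block (square) and with pair means (triangle). The dashed line is 0.05. Cd209a crosses it in most fits, and all 3 genes lie above it with pair means.

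Cd209a and Cd209d lie close together on chromosome 8, with Cd209e between them and Cd209b and Cd209c beyond Cd209d in the RefSeq gene order. Their levels correlated at r = 0.845 over the 12 arrays, and at 0.538 after group means were removed. With Cd4 the levels correlated at 0.703 for Cd209a and 0.808 for Cd209d, and the deviations at 0.106 and 0.326. These are descriptions over arrays that share groups and pairs. The 250 bases before each start (RefSeq, GRCm38.p6, both on the minus strand, at chr8:3748985-3749234 and chr8:3878500-3878749) are shown because both genes were lower in KO and lie close together. Entries existed for 4 of the 9 members. Capitals mark matches, on either strand, to GAGGAA (the core bound by PU.1) or TGGGAA (the core bound by RBPJ).
Cd209a: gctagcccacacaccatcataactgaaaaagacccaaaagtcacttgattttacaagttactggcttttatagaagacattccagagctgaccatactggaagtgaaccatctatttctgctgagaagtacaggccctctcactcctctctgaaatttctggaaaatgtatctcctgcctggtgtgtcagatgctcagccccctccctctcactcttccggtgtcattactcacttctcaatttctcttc
Cd209d: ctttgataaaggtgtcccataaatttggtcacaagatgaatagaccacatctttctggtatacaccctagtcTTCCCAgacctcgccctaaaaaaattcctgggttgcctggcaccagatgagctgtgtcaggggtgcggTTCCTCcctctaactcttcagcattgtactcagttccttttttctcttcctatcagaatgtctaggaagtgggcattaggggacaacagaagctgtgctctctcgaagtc
The Cd209a window held no match to either core, and the Cd209d window held 1 of each, both on the strand opposite to the gene. Of 32851 RefSeq windows of this length, 23.3% held the PU.1 core and 21.6% the RBPJ core. The repeat bound by IRF factors, also searched, was in neither window and in 2.98% of all windows. A match is a string of letters and not a measured binding site.

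No related lectin passed the test. In the list of lectin relatives, 12 of 16 genes were measured and 0 passed in the averaged comparison by limma (median log2 fold change 0.01). Cd209b, Cd209c, Cd209e, Cd209f and Cd209g all averaged below the median probe set, at 1.40 to 2.38. Cd209e, the gene between Cd209a and Cd209d, differed by −0.23 (limma adjusted p = 0.304). Among the brighter relatives, Clec4d, which senses mycobacterial glycolipid and is abundant on neutrophils, differed by 1.15 (limma adjusted p = 0.119), Clec7a, the beta-glucan receptor dectin-1, by 0.18 (0.543), and Clec4n, dectin-2, by −0.23 (0.725). Clec4e, the receptor Mincle, differed by 0.97 (adjusted p = 0.0516). Clec4a2, from the cluster that holds Clec4a4, differed by 0.49 (adjusted p = 0.421).

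Sirpa encodes the inhibitory receptor SIRP-alpha (CD172a), which binds CD47 and separates cDC2 from cDC1. It had 3 probe sets, which correlated with each other at 0.751 to 0.924. On the brightest (1416985_PM_at), signals were 7.49, 7.72 and 7.54 in KO DCs and 7.91, 7.67 and 7.32 in WT DCs without stimulation, and the groups overlapped. With LPS they were 6.91, 6.56 and 7.30 in KO DCs and 7.52, 7.72 and 7.38 in WT DCs, with every KO array below every WT array. The difference was −0.05 ± 0.19 without stimulation and −0.62 ± 0.19 with LPS, and neither passed (limma adjusted p = 0.976 and 0.196). By group mean, WT without stimulation, KO without stimulation and WT with LPS stood close together at 7.63, 7.58 and 7.54, and KO with LPS was lowest at 6.92.

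The other 2 Sirpa probe sets also had their lowest mean in KO DCs with LPS. The set 1448534_PM_at had 7.17, 7.51 and 7.15 in KO DCs and 7.45, 6.71 and 7.04 in WT DCs without stimulation, then 6.72, 6.37 and 7.09 in KO DCs and 7.28, 6.92 and 7.09 in WT DCs with LPS. The set 1416986_PM_a_at had 6.69, 7.22 and 6.77 in KO DCs and 7.28, 6.82 and 6.72 in WT DCs without stimulation, then 6.34, 5.65 and 6.76 in KO DCs and 7.17, 6.88 and 6.75 in WT DCs with LPS. Both overlapped between genotypes with LPS, where KO array 3 reached the WT arrays and KO array 2 was lowest. Differences with LPS were −0.37 and −0.68, and those averaged over stimulations were −0.33, −0.08 and −0.36 for the 3 probe sets (limma adjusted p = 0.245, 0.84 and 0.349). Without KO LPS array 2 the LPS difference of the brightest set was −0.43 (limma adjusted p = 0.443), and without KO LPS array 3 it was −0.81 (0.0483).

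No member passed in the stimulation contrasts. With LPS against no stimulation in KO DCs, the 3 Sirpa probe sets differed by −0.66, −0.55 and −0.64, and in WT DCs by −0.09, 0.03 and −0.01. Without KO LPS array 2 the brightest differed by −0.48 in KO DCs. This contrast shares its KO LPS arrays with the genotype contrast. No member probe set passed in KO (0 of 11, against 0.301% of all probe sets) or in WT (0 of 11, against 0.128%), by limma with adjustment over all probe sets. At an unadjusted p under 0.05, 4 of 11 were lower with LPS in KO (the 3 Sirpa probe sets and Itgam, against 5.48% of all probe sets) and 0 of 11 reached it in WT, against 4.93%. The 2 brighter Sirpa probe sets had no overlap between stimulated and unstimulated KO arrays, as 7.87% of all probe sets did in that direction. The test of the difference itself, between the responses of KO and WT DCs to LPS, gave −0.57, −0.58 and −0.63 for Sirpa, each with adjusted p = 0.957 by limma. In that comparison 0% of all probe sets passed, and 0 of 11 members had an unadjusted p under 0.05, against 3.95% of all probe sets. A different response of Sirpa to LPS between genotypes was therefore not shown. Cd47, the ligand of SIRP-alpha, had an averaged difference of 0.02 (limma adjusted p = 0.928).

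The lectin and CD4 members did not respond detectably to LPS. In KO DCs, LPS against no stimulation gave −0.19 for Cd4, −0.02 for Cd209a and 0.07 for Cd209d. In WT DCs it gave −0.14, −0.11 and −0.12 for the same genes. The 95% intervals in KO DCs ran from −0.56 to 0.17 for Cd4, −0.77 to 0.74 for Cd209a and −0.35 to 0.49 for Cd209d, each short of that gene's averaged genotype gap. The dimmer Cd4 probe set was lower in every WT array with LPS than without (−0.31), as were 4.97% of all probe sets.

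Itgam encodes CD11b, the integrin alpha chain that pairs with CD18 and is shared by cDC2, monocytes, neutrophils and NK cells. Its probe set (1422046_PM_at) had 3.56, 4.11 and 2.02 in KO DCs and 1.93, 2.19 and 1.44 in WT DCs without stimulation. KO arrays 1 and 2 stood above all others, and KO array 3 lay among the WT arrays. With LPS it had 2.35, 2.33 and 2.16 in KO DCs and 1.73, 2.11 and 1.96 in WT DCs, a narrow gap without overlap, which 6.89% of all probe sets showed in that direction. Differences were 1.38 ± 0.39 without stimulation, 0.35 ± 0.39 with LPS and 0.87 ± 0.28 averaged (limma adjusted p = 0.27, 0.734 and 0.141). Without KO unstimulated array 3 it passed without stimulation (1.99, limma adjusted p = 0.00612), averaged (1.17, 0.00427) and for LPS against no stimulation in KO DCs (−1.56, 0.0185). In KO DCs the LPS contrast over all arrays was −0.95 (limma adjusted p = 0.466).

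Markers of neutrophils and NK cells moved with genotype, whereas the macrophage and monocyte list gave 1 call. In the averaged comparison 7 of 10 measured (of 12 listed) neutrophil genes were higher in KO and none lower, with a median of 2.76. Their summed linear signal was 2330 to 7318 in KO and 219 to 994 in WT DCs without stimulation, and 2202 to 6218 in KO and 199 to 904 in WT DCs with LPS. These were S100a8, S100a9, Lcn2, Ngp, Camp, Ltf and Mpo, and Lcn2 and Camp, both granule proteins, were higher by 5.19 and 4.99 (limma adjusted p = 0.00114 and 0.000906). As with Itgam, KO array 3 was the lowest KO array without stimulation, with neutrophil averages of 7.89, 8.27 and 6.01 over KO arrays 1 to 3 against 4.74, 4.47 and 3.50 in WT. With LPS those averages were 7.61, 7.61 and 5.94 in KO and 4.64, 4.67 and 3.48 in WT. Of the 9 NK genes 8 were higher in KO (median 1.61), namely Ncr1, Klrb1c, Klra8, Klra9, Gzma, Gzmb, Eomes and Nkg7, with sums of 923 to 1137 in KO and 104 to 232 in WT DCs without stimulation, and 907 to 1113 in KO and 118 to 255 in WT DCs with LPS. Of all probe sets 1.35% were called higher in the averaged comparison. In the macrophage and monocyte list 1 of 16 measured genes was higher, Ly6c1. The part of these cells in the Itgam values, or in the lower levels of Cd4, Cd209a and Cd209d, was not tested.

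The integrin relatives of Itgam gave no call. In the list of integrin and SIRP relatives 10 of 12 genes were measured, and none passed in the averaged comparison (median 0.09). Itgb2, the CD18 chain, differed by 0.09 (limma adjusted p = 0.665), and Itgax, the CD11c chain and next gene to Itgam on chromosome 7, by 0.16 (0.547). Itgal, the LFA-1 alpha chain, differed by 0.21 (0.368).

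Esam, an adhesion molecule that marks the NOTCH2-dependent splenic cDC2, had 2.94, 2.90 and 2.92 in KO DCs and 2.96, 2.79 and 3.32 in WT DCs without stimulation. With LPS it had 3.05, 2.60 and 3.15 in KO DCs and 3.04, 3.07 and 3.35 in WT DCs. The groups overlapped under both stimulations. The averaged difference was −0.16 with a 95% interval from −0.41 to 0.09 (limma adjusted p = 0.535), at a signal close to the median probe set, and without KO LPS array 2 it was −0.08 (adjusted p = 0.779). Clec10a (CD301a) and Mgl2 (CD301b) are galactose-binding lectins from neighbouring genes on chromosome 11, and Mgl2 marks cDC2 of the skin in particular.

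Clec10a had 2.98, 2.82 and 2.66 in KO DCs and 2.71, 2.73 and 2.61 in WT DCs without stimulation, and 3.00, 2.59 and 2.64 in KO DCs and 2.48, 2.91 and 2.91 in WT DCs with LPS. Mgl2 had 1.86, 1.72 and 1.56 in KO DCs and 1.69, 1.65 and 1.63 in WT DCs without stimulation, and 1.66, 1.58 and 1.63 in KO DCs and 1.52, 1.56 and 1.90 in WT DCs with LPS. All groups overlapped, and the averaged differences were 0.06 and 0.01 (limma adjusted p = 0.834 and 0.976). At signals this dim a difference may not be detectable. The pair correlated at 0.637 over the 12 arrays.

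**Figure D3:**
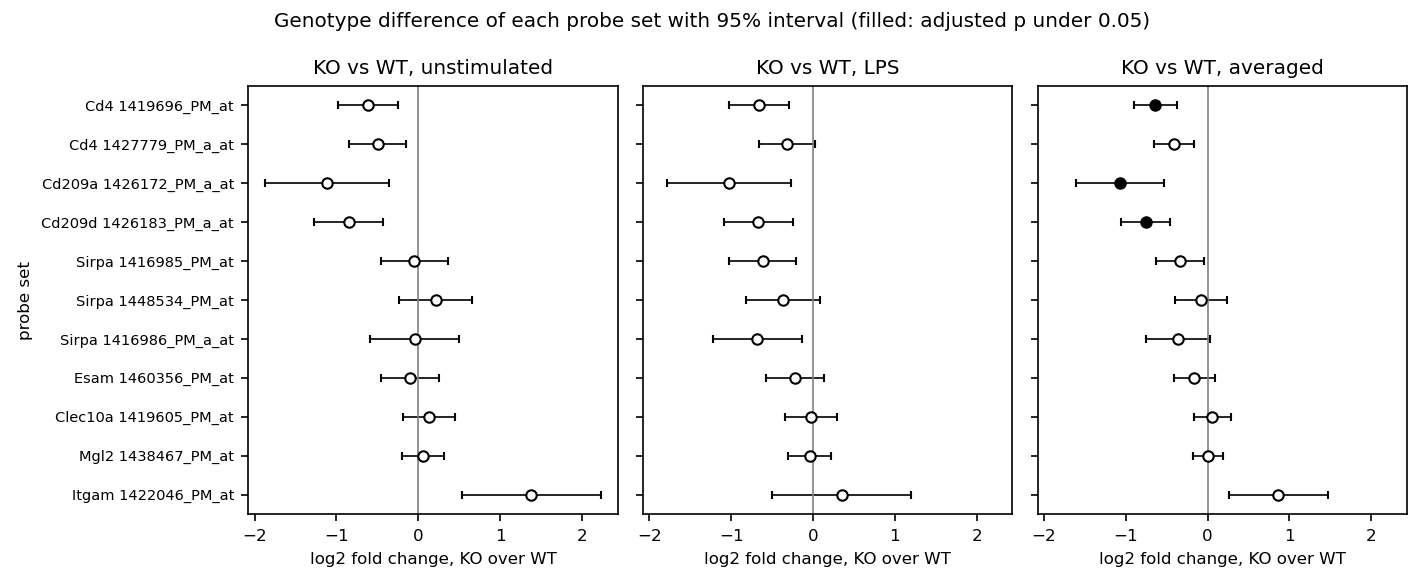
Log2 fold change of KO over WT (horizontal axes) for each member probe set without stimulation, with LPS and averaged, with its 95% interval from limma. Filled points passed an adjusted p of 0.05, which only the bright Cd4 probe set, Cd209a and Cd209d did, at −0.64, −1.07 and −0.76 in the averaged comparison.

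Within each stimulation no member passed by limma. Without stimulation 0 of 11 probe sets passed, against 0.163% of all, and with LPS 0 of 11, against 0.322% of all. At an unadjusted p under 0.05, 4 were lower and 1 was higher without stimulation, against 3.59% and 4.9% of all probe sets, and 5 were lower and 0 higher with LPS, against 7.68% and 6.18%. Without stimulation both Cd4 probe sets, Cd209a and Cd209d lay below WT with no overlap (4 of 11, against 7.7% of all probe sets), and with LPS the bright Cd4 probe set, Cd209a, Cd209d and the brightest Sirpa set did (4 of 11, against 10.2%). When KO LPS array 2 was left out, Cd4 (limma adjusted p = 0.0457) and Cd209d (0.0305) passed without stimulation, and no member passed with LPS. The differences with LPS were then −0.47 for Cd4 (limma adjusted p = 0.249), −0.72 for Cd209a (0.521), −0.48 for Cd209d (0.39) and −0.43 for the brightest Sirpa set (0.443).

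The genes that build and maintain cDC2 gave no call. In the regulator list 22 of 25 genes were measured and none passed in the averaged comparison, with a median log2 fold change of −0.16 against −0.02 over all probe sets. Dtx1, a target of NOTCH signalling, differed by −0.65 (limma adjusted p = 0.0823), Notch2 itself by −0.21 (0.507) and Rbpj by −0.15 (0.552). Others on this list went the other way. Hes1, also a NOTCH target but below the median probe set, differed by 0.22 (limma adjusted p = 0.351), Tbx21 by 0.25 (0.217) and Irf2 by 0.34 (0.496). Irf4 differed by −0.02 (0.977), and Zbtb46, a factor shared by conventional DCs, differed by −0.52 (0.194). The brightest of the list, Id2 and Csf2rb, the latter needed for GM-CSF signalling, differed by −0.19 and −0.18 (limma adjusted p = 0.316 and 0.466).

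In the list of other genes tied to ESAM-high cDC2, 9 of 10 were measured and none passed (median −0.13). Ccr6, the receptor for CCL20, differed by −0.90 (limma adjusted p = 0.0653), and Nr4a3, a nuclear receptor, by −0.38 (0.129). Fcer1g, Cd9 and Ltb went the other way, at 0.13, 0.19 and 0.05 (limma adjusted p = 0.677, 0.609 and 0.854). Cd8a stands on this list although it is chiefly a cDC1 gene, and it differed by −0.53 (0.05 after rounding, not under the threshold). In the list tied to ESAM-low cDC2, 9 of 10 were measured and none passed (median 0.12). Csf3r, the G-CSF receptor, differed by 1.77 (limma adjusted p = 0.0521), Fcgr3, an Fc receptor, by 1.08 (0.0516), Lyz2, lysozyme, by 0.48 (0.0596), and Csf1r, the M-CSF receptor, by −0.70 (0.0707). Csf3r is also on the neutrophil list, and Lyz2 and Csf1r are on the macrophage and monocyte list.

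Genes of the other DC types give the setting. None of the 7 measured of 8 pan-DC genes passed in the averaged comparison (median −0.22), and their summed linear signal was 3270 to 3485 in KO and 3357 to 3544 in WT DCs without stimulation, and 2061 to 3344 in KO and 3457 to 3703 in WT DCs with LPS, where the lowest KO value is array 2. Of 9 measured cDC1 genes (10 listed) 2 were lower in KO, Xcr1, the receptor for XCL1, at −0.54 and Wdfy4, needed for cross-presentation, at −0.40 (limma adjusted p = 0.0247 and 0.0144), with a list median of −0.19. Of 6 measured plasmacytoid DC genes (8 listed) 1 was higher, Cox6a2, by 0.36 (adjusted p = 0.0353). Of 8 measured B lineage genes (9 listed) Ms4a1 (CD20) was higher, at 0.87, and Jchain, the joining chain of secreted antibodies, lower, at −3.54 (limma adjusted p = 0.0112 and 0.000219). Over all probe sets 0.775% passed as lower and 1.35% as higher in the averaged comparison. Lower levels in KO were thus not limited to the cDC2 members.

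**Figure D4:**
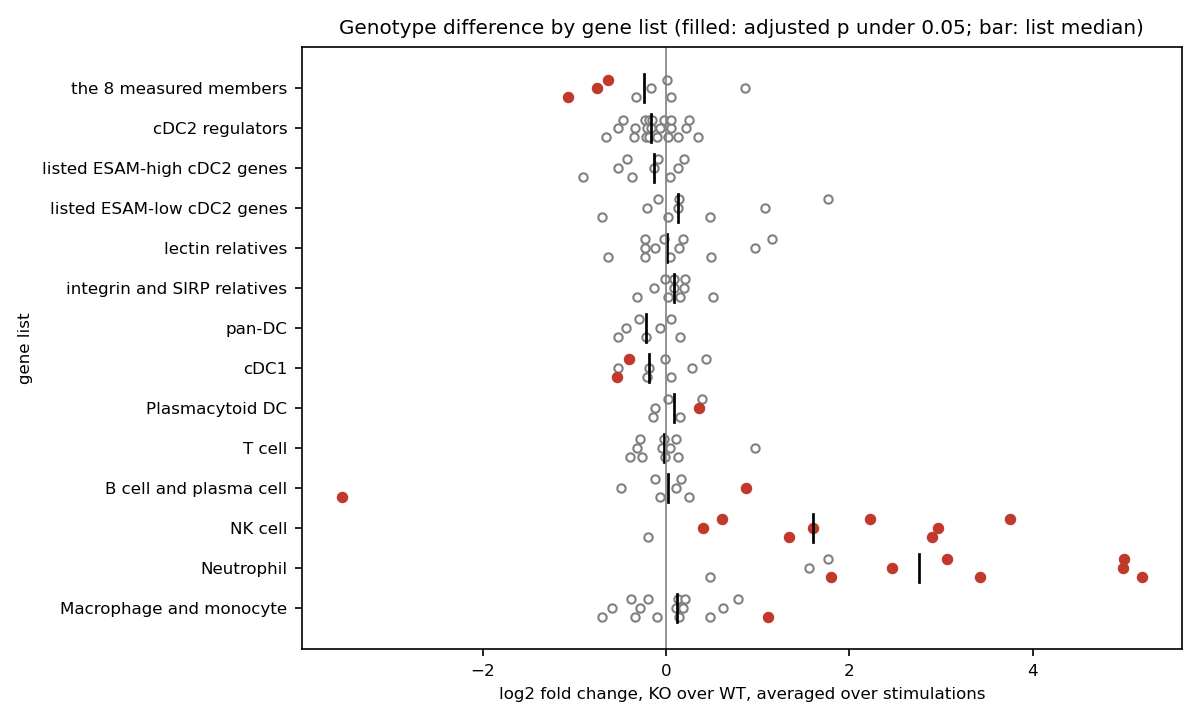
Log2 fold change of KO over WT averaged over both stimulations (horizontal axis) for each measured gene of the 8 members and 13 lists (rows), with the brightest probe set per gene. Filled points passed an adjusted p of 0.05 and bars are list medians, which run from −0.22 (pan-DC) to 2.76 (neutrophil) among the 13 lists.

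Among 9099 named genes above the median probe set, those whose levels over the 12 arrays were most like the members' were listed by Pearson's r. For Cd4 they were Barx2 (0.95), Fbl (0.943) and Crybg1 (0.943). For Cd209a they were Ensa (0.91), Gnl3l (0.899) and Cyp27a1 (0.891), and for Cd209d St8sia6 (0.905), Glb1l2 (0.901) and Cyp27a1 (0.895). Cyp27a1, a mitochondrial sterol hydroxylase, stood near both lectins and was lower in KO, at −0.71 (limma adjusted p = 0.0068). Sirpa was most like Unc5a (0.966), Pld4 (0.964) and Runx1 (0.961), and Itgam most like Gpsm3 (0.933), Slfn1 (0.926) and Pigb (0.913). Esam was most like Slc41a3 (0.948), Sesn2 (0.936) and Supt6 (0.918), whereas the best values for Clec10a (Sytl3, 0.786) and Mgl2 (Igsf3, 0.844) were lower. After group means were removed the closest genes were other ones, Tgm5 for Cd4 (0.965), Dmrtc1a for Cd209a (0.955), Hoxc4 for Cd209d (0.959), Metrnl for Sirpa (0.937) and Nfam1 for Itgam (0.952). With so many candidates and 12 arrays, values of this size are a description.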

How the data were processed

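The deposited values are log2 signals that the authors made with RMA, per the submitters' processing notes (version not given in the sources used here). Of 45141 probe sets, 104 controls, 551 with several symbols in the platform annotation and 15588 with none were left out. The other 28898 were fitted with limma 3.58.1 in R 4.3.3 (lmFit and eBayes, 4 group means, 8 residual degrees of freedom, 6 contrasts), without a block, and called at a Benjamini-Hochberg adjusted p under 0.05 over all of them. No filter on low values was used. Errors after ± are moderated SEs, unless SD is written. The fit was also run on simulated data with independent noise on every array. That simulation held neither pairs nor an array that stands apart, so it does not bear on them.

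The brightest probe set stood for a gene where 1 value was needed. All members were named with every probe set. Of each list, genes called and examples from the brightest were to be named, and other list genes in the text were chosen after their values were seen. The members and lists were chosen with earlier results of these data known. The number of arrays limits the precision, and the values carry no measure of signal over background.

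Deviations from the group means of arrays that share a genotype and a number had correlations of 0.263, 0.25 and 0.387 in KO and 0.352, 0.22 and 0.385 in WT, so they were treated as pairs in alternatives (statmod 1.5.0, consensus correlation 0.162). The labels neither state that such a pair shares a mouse nor that it comes from different mice. Across genotypes, arrays of the same number had correlations from −0.0039 to 0.209.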

Additional observations from a re-analysis of the deposited data

How the results depend on the processing

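Member calls were sensitive to the pairing and to single arrays. For KO against WT averaged over stimulations, 3 member probe sets passed with all arrays, 0 to 4 with 1 array left out, and 0 both with the replicate block as pair means and with KO pair 2 taken from its unstimulated array. Those fits gave −0.64 and −0.61 for Cd4, −1.07 and −0.87 for Cd209a and −0.76 and −0.62 for Cd209d, none past the threshold. Cd209a also missed with the random replicate block (−1.07), and without KO LPS array 2 under that block (−0.91), whereas Cd4 and Cd209d held in both. Cd4, Cd209a and Cd209d all held with array weights (limma adjusted p = 0.00932, 0.0261 and 0.00723). They also held with a block of number over all arrays (0.00349, 0.0277 and 0.014). With 1 array left out, the averaged values ran from −0.69 to −0.54 for Cd4, −1.19 to −0.91 for Cd209a and −0.86 to −0.67 for Cd209d. Without stimulation 0 member probe sets passed, 1 with array weights, 2 with the random replicate block without KO LPS array 2, and 0 to 2 with 1 array left out. With LPS 0 passed, 1 (Cd4, −0.66) with a block of number over all arrays, and 0 to 1 with 1 array left out. For LPS in KO DCs 0 passed, and 0 to 1 with 1 array left out, and the Cd4 value ran from −0.34 to 0.0012, the sign turning without KO LPS array 2. Of 1110 gene values under alternatives 54 changed sign, 53 of them values that lay within 1 SE of 0. The cause of these changes was not tested, and the smaller fits also held fewer samples. Quantile normalisation, median centring, a filter on dim probe sets, 1 probe set per gene and other adjustments moved no member count by more than 1.5 times, but removed Clec10a, Mgl2 and Itgam where dim sets were filtered.

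Over all probe sets the calls numbered 47 without stimulation (6 to 297 across alternatives), 93 with LPS (0 to 511), 614 averaged (60 to 1267), 37 for LPS in WT (11 to 167), 87 for LPS in KO (8 to 207) and 0 for the difference of LPS effects (0 to 0). A fixed block of genotype and number cannot give a genotype contrast. The pair means were added after seeing the data.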
